A study of Haliotis discus hannai with 24 samples.

Results

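A set of 187 genes of the Pacific abalone Haliotis discus hannai, of 19700 genes listed, was abundant in both kinds of tentacle and low in the eyestalk. The members were chosen by their measured levels in these libraries, as medians of CPM, the share of a library's total count scaled as usual, over the 8 libraries of each organ. A member had at least 10 CPM in both tentacles, and its lower tentacle median was at least 4-fold above the eyestalk median after 1 CPM was added to each. The medians of the tentacles also had to lie less than 4-fold apart. Of 3034 genes with at least 10 CPM in both tentacles, 198 reached the 4-fold ratio and 11 of these were left out for the gap between the tentacles. The levels in the 3 organs are therefore a description, and counts of members that a fit called between organs follow from the choice and are no test of it.

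Polyadenylated RNA was sequenced from the left cephalic tentacle, the right cephalic tentacle, the left epipodial tentacle, the right epipodial tentacle, the left eyestalk and the right eyestalk, with 4 libraries in each group. All 24 libraries carry the genotype label Aquaculture and the same batch value, and the treatment label gives the excision of the organ. The sources used here give no age, sex or number of animals. P-values of the tests between groups therefore set a difference against the spread among libraries of a group, and that spread may be technical. Where a fit includes the replicate number, they set it against the spread left after group and number. For the epipodial libraries labelled left, the treatment label names the cephalic tentacle, and the side letter in the epipodial titles is the reverse of the letter used for the other organs. The side follows the tissue label here.

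The abalone eyestalk carries the eye at its tip, with the photoreceptor cells of the retina. The cephalic tentacles are a pair of long extensible organs of touch and chemical sense on the head. The epipodial tentacles are slender contractile sensory processes that fringe the epipodium, the fold of tissue around the foot. The files pair 0 identifiers with gene names, so the members are given by identifier, no role can be stated for them, and the labelled organs could not be checked against marker genes. In whole-organ RNA, fewer cells of a type and less RNA per cell cannot be told apart.

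The total count per library ran from 473072 to 4479096. In 8 libraries, either fewer than 6000 genes had a count or 1 gene held more than 50% of the counts: right cephalic replicates 3 and 4, left cephalic replicates 1 and 2, left eyestalk replicates 2 and 3, and right eyestalk replicates 1 and 2. No epipodial library was among them. The last of these, right eyestalk replicate 2, had 70.8% of its counts on 1 gene, which lowers the CPM of every other gene in it. The results that rest on these 8 libraries, called the doubted libraries below, are given with and without them.

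The median member had 51.0 CPM in cephalic and 56.3 CPM in epipodial tentacles, against 5.29 CPM in the eyestalk. Across members, the medians reached from 10.02 to 11110 CPM in the cephalic tentacle and from 10.02 to 12585 CPM in the epipodial tentacle, against 0 to 600 CPM in the eyestalk. The set thus held both genes near the lower bound and some of the abundant genes of the tentacle. By their lower tentacle median, 80 members lay between 10 and 30 CPM, 42 between 30 and 100 CPM, 56 between 100 and 1000 CPM and 9 at 1000 CPM or more. By their eyestalk median, 7 members were at 0, 24 above 0 and under 1 CPM, 81 from 1 to 10 CPM, 61 from 10 to 100 CPM and 14 at 100 CPM or more. Most members were therefore read in the eyestalk too, at a lower level.

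**Figure D1:**
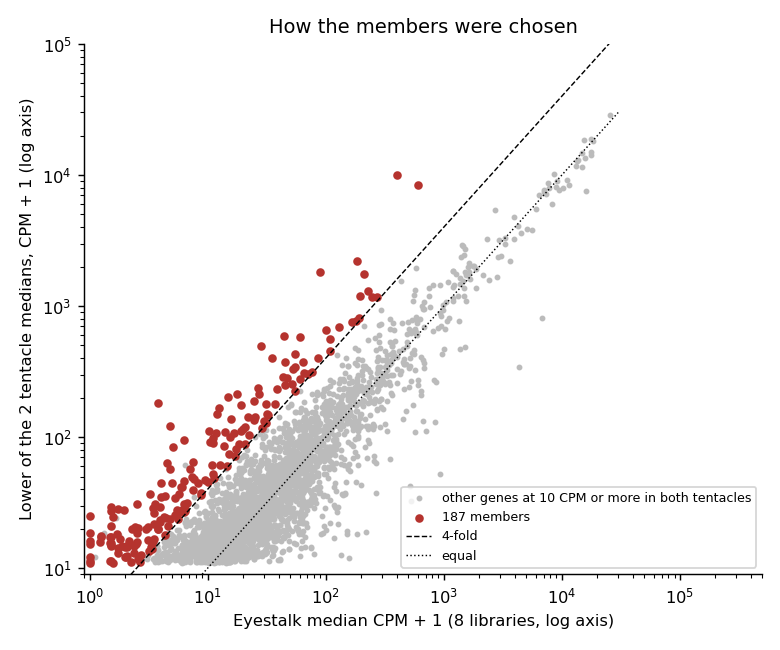
Lower of the 2 tentacle medians against the eyestalk median, both as CPM + 1 on log axes and over 8 libraries per organ, for the 3034 genes with at least 10 CPM in both tentacles. The 187 members (red) lie above the dashed 4-fold line and the other genes (grey) mostly below it, since the members were chosen by these values.

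The log2 ratio of tentacle to eyestalk had a median of 2.69 and reached from 2.02 to 5.59. It lay between 2 and 3 in 124 members, between 3 and 4 in 51, between 4 and 5 in 11 and above 5 in 1. The member nearest to the ratio bound, HDSC01039CG00080, had a cephalic median of 328 CPM and an epipodial one of 311 CPM, against 76.0 CPM in the eyestalk. The gene just outside had 20.5 and 17.3 CPM in the tentacles, against 3.59 CPM in the eyestalk, for a log2 ratio of 2.00 (1.996 before rounding). At the bound on level, the last member had an epipodial median of 10.02 CPM, and the first gene left out had a cephalic median of 9.56 CPM and an eyestalk median of 0. At the bound between tentacles, the last member had a cephalic median of 88.4 CPM and an epipodial one of 357 CPM, and the first gene left out had 44.7 and 195 CPM.

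Together the members held 3.26% to 12.9% of the counts of a cephalic library and 3.36% to 10.8% of those of an epipodial library, against 0.119% to 2.08% of those of an eyestalk library. By library totals, every tentacle library was thus above every eyestalk library in the summed level, although single members overlapped. With counts scaled by TMM factors, the scaling used in the tests below, the ranges nearly met. The lowest tentacle library, right epipodial replicate 4, was then at 2.70%, and the highest eyestalk library, right replicate 1, at 2.61%. The share was 8.88%, 6.52%, 8.15% and 12.9% in left cephalic replicates 1 to 4 and 10.99%, 4.51%, 6.64% and 3.26% in right cephalic replicates 1 to 4. For epipodial libraries it was 9.84%, 9.46%, 3.46% and 3.39% in left replicates 1 to 4 and 10.8%, 6.70%, 4.98% and 3.36% in right replicates 1 to 4. In the eyestalk it was 2.08%, 0.660%, 0.619% and 0.717% in left replicates 1 to 4 and 1.26%, 0.119%, 1.00% and 0.910% in right replicates 1 to 4. The share was uneven within each tentacle too, with the lowest values in right cephalic replicate 4 and in replicate 4 on both epipodial sides. With TMM factors right cephalic replicate 4 was at 6.53%, and left cephalic replicate 2 was the lowest cephalic library, at 4.20%. The mean share was 7.73 ± 3.20% in the cephalic and 6.49 ± 3.14% in the epipodial tentacle, which differed by less than their spread, against 0.921 ± 0.574% in the eyestalk (SD, n = 8 each).

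The sum rested on few genes. The 5 most abundant members of an organ, by mean CPM, made up 47.8% of the members' summed CPM in the cephalic tentacle. They made up 45.1% in the epipodial tentacle, against 39.4% in the eyestalk. For a second measure, the 5 members with the most counts over all 24 libraries were set aside, which need not be the same genes. The share of counts then ran from 1.38% to 6.74% in the cephalic and from 2.10% to 6.07% in the epipodial tentacle, against 0.1000% to 1.33% in the eyestalk. The ranges again did not overlap, with a gap of 1.38% against 1.33% between the lowest cephalic and the highest eyestalk library.

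**Figure D2:**
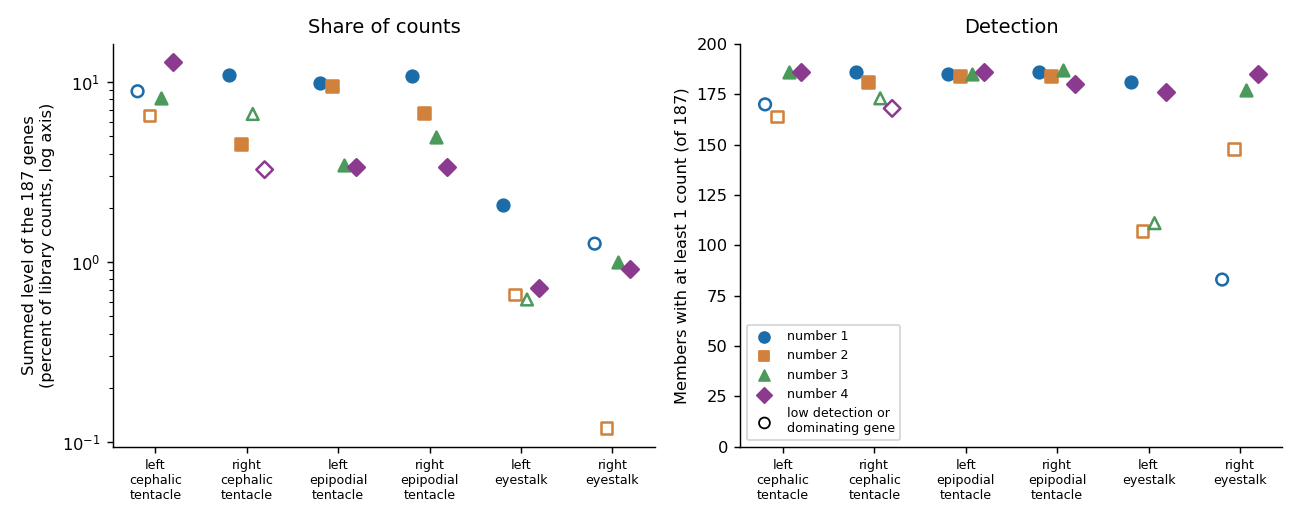
Share of each library's counts held by the 187 members (left, log axis) and number of members with at least 1 count (right), for the 4 libraries of each group. Colours and shapes give the replicate number, and hollow symbols mark the doubted libraries (fewer than 6000 genes with a count, or 1 gene above 50% of counts); tentacle libraries lie between 3.26% and 12.9%, against 0.119% to 2.08% in the eyestalk.

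Detection split the eyestalk libraries. The 4 doubted eyestalk libraries read 83 to 148 of the 187 members, and the other 4 read 176 to 185. In the cephalic tentacle the 4 doubted libraries, which had 473072 to 1146559 counts and 3919 to 5471 genes, read 164 to 173 members. The 4 doubted eyestalk libraries had 3682 to 8371 genes. The members were chosen as high in the cephalic tentacle and low in the eyestalk in these libraries, so this order follows from the choice. The other 4 cephalic libraries read 181 to 186 members and the 8 epipodial libraries 180 to 187. A count in all 8 libraries of the organ was found for 130 members in the cephalic and 175 in the epipodial tentacle, against 62 in the eyestalk. No share over other genes was taken for these counts. The doubted libraries lie in the cephalic tentacle and the eyestalk only, and the choice favours low eyestalk values, so nothing is read from the order. A total of 46 members were at 0 in 3 eyestalk libraries, and 0 members were at 0 in 7 or 8 of them.

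The ratio of CPM medians was smaller where all 8 doubted libraries were set aside, and the fitted fold change was not. The median of the members within a library was 15.0 to 80.9 CPM in the 4 doubted cephalic libraries, against 0 to 5.26 CPM in the 4 doubted eyestalk libraries. In the remaining libraries it was 30.9 to 120 CPM in cephalic and 29.4 to 94.1 CPM in epipodial tentacles, against 9.51 to 21.3 CPM in the eyestalk. The median log2 ratio of the same 187 members was then 2.04 in place of 2.69. The members' median fitted log2 fold change, which scales libraries by TMM factors, was 2.76 without the doubted libraries and 2.69 with them for the cephalic tentacle over the eyestalk. For the epipodial tentacle over the eyestalk it was 2.49 without them and 2.39 with them. Of the 187, 90 still met all bounds without the doubted libraries.

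**Figure D3:**
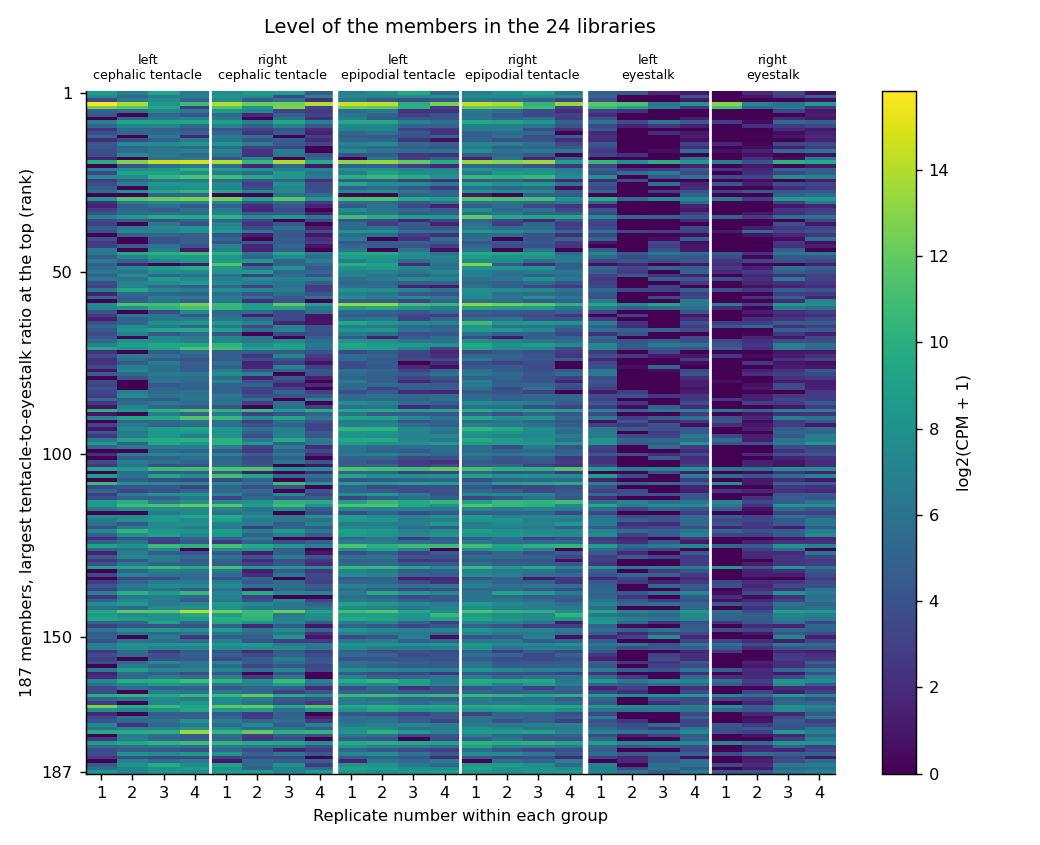
Level of each of the 187 members (rows, ordered by the tentacle-to-eyestalk ratio) in each of the 24 libraries (columns, by group and replicate number) as log2(CPM + 1). The dark cells at 0 gather in left eyestalk replicates 2 and 3 and right eyestalk replicates 1 and 2, which read 83 to 148 members, while the other eyestalk libraries read 176 to 185.

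Single libraries overlapped between the organs for most members. In 11 members, every one of the 16 tentacle libraries lay above every one of the 8 eyestalk libraries, against 0.177% of all genes tested. In these 11, the lowest tentacle library held 10.7 to 523 CPM and the highest eyestalk library 6.84 to 308 CPM, and the gap between them was 1.02-fold to 2.80-fold. With the 12 tentacle and 4 eyestalk libraries that remain without the doubted ones, 52 members did not overlap, against 1.53% of genes. With each tentacle set against the eyestalk, 14 members did not overlap in the cephalic tentacle, against 0.409% of genes, and 61 in the epipodial tentacle, against 3.01%. Since the members were chosen by these levels, nothing is read from the counts.

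HDSC00450CG00170, with a coding length of 1263, had the largest ratio, with a cephalic median of 283 CPM and an epipodial one of 180 CPM, against 2.77 CPM in the eyestalk. It had 361, 107, 629 and 89.4 CPM in left cephalic replicates 1 to 4 and 204, 416, 476 and 22.9 CPM in the right ones. It had 122, 239, 771 and 39.3 CPM in left epipodial replicates 1 to 4 and 114, 245, 566 and 62.9 CPM in the right ones. The left and right epipodial tentacles thus followed each other by replicate number, with the highest value in replicate 3 and the lowest in replicate 4 on both sides. In the eyestalk it had 29.4, 20.9, 2.63 and 1.03 CPM in left replicates 1 to 4 and 0, 2.90, 9.99 and 0.511 CPM in the right ones. The lowest cephalic library, right replicate 4 at 22.9 CPM, lay below the highest eyestalk library, left replicate 1 at 29.4 CPM, so the groups overlapped.

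HDSC05866CG00020, with a coding length of 294, had the highest lower tentacle median, with a cephalic median of 9976 CPM and an epipodial one of 12585 CPM, against 400 CPM in the eyestalk. It alone made up 18.9% of the members' summed CPM in the cephalic and 19.1% in the epipodial tentacle, against 19.9% in the eyestalk. Per length, its medians were 33932 FPKM in the cephalic and 42807 FPKM in the epipodial tentacle, against 1359 FPKM in the eyestalk. It was thus far above the member with the largest ratio on this scale too: HDSC00450CG00170 had 224 and 143 FPKM in the tentacles, against 2.19 FPKM in the eyestalk. The most abundant member also varied widely within each organ. It had 58011, 14251, 313 and 1748 CPM in left cephalic replicates 1 to 4 and 15503, 4681, 5701 and 16470 CPM in the right ones. Epipodial levels were 24054, 20215, 1063 and 6501 CPM on the left and 20778, 14791, 1322 and 10379 CPM on the right. In the eyestalk it had 3577, 2520, 81.5 and 336 CPM on the left and 7498, 146, 70.4 and 463 CPM on the right. The cephalic library with 313 CPM lay below 5 of the 8 eyestalk libraries, all of them from other replicate numbers.

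The ratio also depended on the replicate number. With the libraries of 1 number taken alone, the median log2 ratio of the members was 2.22, 3.57, 2.24 and 1.20 in numbers 1 to 4. The 4-fold bound was passed by 106, 166, 109 and 39 members in numbers 1 to 4, and 180, 184, 181 and 147 members were higher in both tentacles than in the eyestalk. A total of 140 members were higher in both tentacles in all 4 numbers. The libraries of each number are among those that chose the members, which favours such counts. No share over all genes was taken for them, so nothing is read from the counts. Number 4, in which the fewest members passed, has 2 eyestalk libraries with 176 and 185 members read, and number 2, in which the most passed, has 2 doubted eyestalk libraries. What part detection had in this order was not tested.

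The same measure was read in libraries that the choice did not use by choosing genes on 1 side and measuring them on the other. Chosen on the left libraries alone, 177 genes met the bounds, 124 of them members, and their median log2 ratio was 2.74 on the left and 2.39 on the right. On the right, 163 of the 177 had a ratio above 0 and 105 (59.3%) reached 4-fold. Of the 2834 genes with at least 10 CPM in both right tentacles, 8.33% did, with a median log2 ratio of 0.35. Chosen on the right libraries alone, 216 genes met the bounds and the 200 with the largest ratio were taken, 134 of them members. Their median log2 ratio was 2.76 on the right and 1.95 on the left, where 182 were above 0 and 99 (49.5%) reached 4-fold. Of the 3238 genes with at least 10 CPM in both left tentacles, 5.78% did, with a median of 0.04. These comparison genes met the bound on level on the side measured, and the chosen genes met it on the other side. In both directions the ratio was smaller on the side that had not chosen the genes. Left and right libraries of a number may come from 1 animal, which the labels do not say.

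The members were also compared in length, in identifier and in how they varied together. The members' median coding length was 765, against 744 over the 7341 genes tested and 837 over the 3034 genes with at least 10 CPM in both tentacles. The 187 identifiers had 173 different stems, the part of the identifier before CG, and 13 stems held more than 1 member, with 27 members and at most 3 on a stem. Within an organ the members varied together: the mean correlation between pairs of members over the 8 libraries was 0.37 in the cephalic tentacle and 0.37 in the epipodial tentacle, against 0.18 and 0.07 over the 3034 genes. In the eyestalk the mean was 0.42 for the members and 0.42 for the 3034 genes. The correlations were taken from CPM by library totals in the same libraries that chose the members, and the 3034 genes include the members. These correlations share the same 8 libraries and their depth, and describe these libraries only.

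The tests across genes took all 7341 genes that passed the filter on low counts, and all 187 members were among them. By edgeR's quasi-likelihood test with Benjamini-Hochberg adjustment and a threshold of 0.05, 106 members were higher in the cephalic tentacle than in the eyestalk (56.7%), against 3.02% of all genes. In the epipodial tentacle, 100 members were higher than in the eyestalk (53.5%), against 3.96% of all genes. Both comparisons share the 8 eyestalk libraries. The members were chosen for this difference in the same libraries, which fixes that their share lies above that of all genes, so nothing is read from the counts.

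Between the tentacles, the medians of 149 members lay less than 2-fold apart, with 86 members higher in the cephalic and 101 higher in the epipodial tentacle. The same test put 2 members higher in the cephalic tentacle, against 0.749% of all genes, and 0 members higher in the epipodial tentacle, against 1.48% of all genes. With a replicate block, 5 members were higher in the cephalic tentacle, against 1.04% of all genes. The bound of 4-fold between the tentacles had kept larger differences out, so these counts are also descriptions.

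HDSC03594CG00010 had the largest fitted log2 fold change, cephalic over epipodial, at 2.95 ± 0.71 (SE). By the medians that chose the set its log2 difference between the tentacles was 1.44, and that of other members was up to 1.72. It had 856, 884, 1042 and 11023 CPM in left cephalic replicates 1 to 4 and 1366, 3902, 1101 and 1383 CPM in the right ones. Epipodial levels were 333, 1147, 466 and 134 CPM on the left and 443, 472, 611 and 131 CPM on the right. Only left epipodial replicate 2 reached into the cephalic range, and left cephalic replicate 4 lay far above the rest. The fold change was 1.79 without that library, and the call was lost. It was also lost, at 2.59 to 2.95, without right cephalic replicate 2, left epipodial replicate 1 or right epipodial replicate 1, 2 or 4. In the eyestalk this member had 145, 76.3, 61.0 and 209 CPM on the left and 11.2, 6.70, 426 and 139 CPM on the right.

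The other call, named after its values were seen, was HDSC00150CG00050, with a coding length of 660. It is one of the 11 members whose tentacle and eyestalk libraries did not overlap. It had 6739, 884, 1592 and 523 CPM in left cephalic replicates 1 to 4 and 3428, 4074, 738 and 2989 CPM in the right ones. Epipodial levels were even, with 625, 920, 795 and 755 CPM on the left and 784, 834, 757 and 622 CPM on the right. In the eyestalk it had 308, 204, 147 and 104 CPM on the left and 278, 22.3, 270 and 154 CPM on the right. Its log2 fold change between the tentacles was 2.48 ± 0.59 (SE), and 1.32 without left cephalic replicate 1, where the call was lost. The call was also lost without the doubted libraries, at 1.37, and by limma on log2(FPKM + 1), at 1.31.

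HDSC00021CG00270, a short gene with a coding length of 132, had the lowest fitted fold change between the tentacles, at -2.9995 ± 1.59 (SE), and was not called. Almost all of its counts came from few libraries: it had 3117 CPM in right cephalic replicate 1, 7264 CPM in right epipodial replicate 1, 1031 CPM in left epipodial replicate 1 and 537 CPM in left epipodial replicate 2. In the remaining libraries it had 0 to 42.2 CPM in cephalic and 2.69 to 49.9 CPM in epipodial tentacles, against 0 to 2.95 CPM in the eyestalk. Without right epipodial replicate 1 the fold change was 0.36, in the other direction.

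The comparison of the left with the right side, which the choice of members did not use, is the question of the study's title. No member passed the threshold in any organ, nor did any of the 7341 genes tested in this fit: 0 of 187 members and 0.0% of all genes in the cephalic tentacle, 0 of 187 and 0.0% in the epipodial tentacle, and 0 of 187 and 0.0% in the eyestalk (edgeR, adjusted p). At an unadjusted p under 0.05, 1 member passed in the cephalic tentacle (0.535%, against 1.36% of all genes), 0 in the epipodial tentacle (against 0.0545%) and 9 in the eyestalk (4.81%, against 2.45%). DESeq2 and limma on log2(FPKM + 1) also called 0 members in each organ, with 2, 0 and 9 members by DESeq2 and 1, 0 and 4 by limma at an unadjusted p under 0.05 in the same order of organs. Of the 9 members in the eyestalk by edgeR, 8 were higher on the left and 1 lower, but this rested on the libraries used. Without the doubted libraries, 4 members passed unadjusted in the eyestalk, 2 higher and 2 lower on the left, and 9 in the cephalic tentacle, 3 higher and 6 lower. With 1 eyestalk library left out, between 5 and 18 members passed in the eyestalk. The count was 5 without left replicate 3 or right replicate 1, 6 without right replicate 2, 18 without right replicate 3, and 15 without left replicate 1, with 8 higher and 7 lower on the left.

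Precision limits this comparison. The interval of the left-right difference at the 95% level lay within 4-fold in both directions for 37 members in the cephalic tentacle, 38 in the epipodial tentacle and 29 in the eyestalk, and within 2-fold for 0 members in each organ. The median size of the fitted log2 difference, without sign, was 0.51 in the cephalic tentacle, 0.31 in the epipodial tentacle and 0.65 in the eyestalk. In this fit, which does not pair the libraries, a 2-fold difference between the sides thus lay inside the interval in at least 1 direction for every member. In the epipodial tentacle, where the libraries of a number pair, the paired fit given below had intervals within 2-fold for 137 members.

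The members' median lay slightly above that of all genes in each organ. The median log2 fold change, left over right, was 0.21 in the cephalic tentacle, against 0.00 over all genes, 0.23 in the epipodial tentacle, against 0.03, and 0.22 in the eyestalk, against -0.12. The fitted level was higher on the left for 116 of 187 members in the cephalic tentacle (62.0%, against 49.4% of all genes), 136 in the epipodial tentacle (72.7%, against 53.1%) and 114 in the eyestalk (61.0%, against 43.3%). The difference between the members' median and that of all genes was 0.18 to 0.21 in the cephalic and 0.18 to 0.20 in the epipodial tentacle, and 0.32 to 0.40 in the eyestalk, under TMM factors, RLE factors and library totals. It was not stable to single libraries: with 1 library of the organ left out it ran from -0.04 to 0.47 in the cephalic tentacle, from -0.03 to 0.41 in the epipodial tentacle and from 0.10 to 0.52 in the eyestalk. The difference turned negative without left cephalic replicate 4 (-0.04), left epipodial replicate 2 (-0.03) or right epipodial replicate 4 (-0.0045). Without the doubted libraries it was 0.33, 0.21 and -0.05 in the same order of organs. Members share their libraries, so no test of the median was made.

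**Figure D4:**
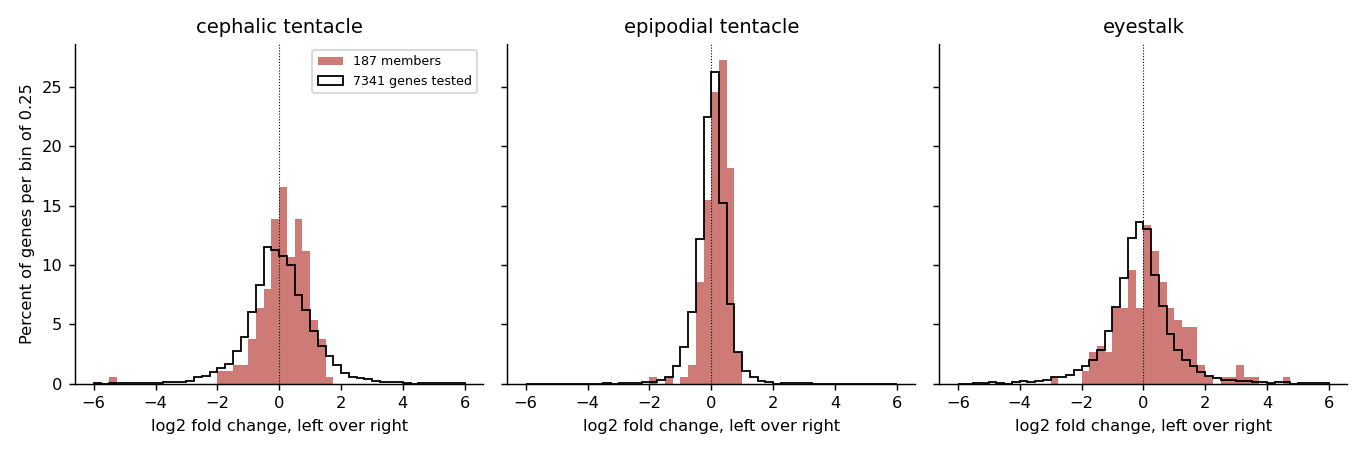
Distribution of the fitted log2 fold change, left over right, in each organ, for the 187 members (filled) and the 7341 genes tested (line), as percent of genes per bin of 0.25. The members' medians of 0.21, 0.23 and 0.22 in the cephalic tentacle, epipodial tentacle and eyestalk lie right of those of all genes, at 0.00, 0.03 and -0.12, and both distributions overlap widely.

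In the cephalic tentacle the smallest p among members higher on the left was that of HDSC00252CG00060, with 13.95, 87.0, 31.4 and 29.3 CPM in left replicates 1 to 4 and 20.8, 7.74, 16.9 and 2.64 CPM in right replicates 1 to 4. The log2 fold change was 1.41 ± 0.99 (SE; edgeR, unadjusted p = 0.163, adjusted p = 1), and the sides overlapped. Among those lower on the left it was that of HDSC00021CG00270, with 27.9, 2.02, 0 and 1.05 CPM on the left and 3117, 3.22, 31.7 and 42.2 CPM on the right, at -5.46 ± 2.52 (SE; edgeR, unadjusted p = 0.0439, adjusted p = 1). The fold change was -1.84 without right replicate 1 and -9.57 without left replicate 1.

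In the epipodial tentacle the member higher on the left with the smallest p was HDSC04860CG00010, an abundant member with 1680, 1962, 1317 and 1612 CPM in left replicates 1 to 4 and 1552, 1229, 729 and 1033 CPM in right replicates 1 to 4. It was higher on the left in all 4 numbers, with a log2 fold change of 0.77 ± 0.61 (SE; edgeR, unadjusted p = 0.22, adjusted p = 1.00), and the ranges of the sides overlapped. HDSC01629CG00010, at -1.40 ± 1.41 (SE; edgeR, unadjusted p = 0.328, adjusted p = 1.00), had 21.4, 14.5, 0 and 10.1 CPM on the left and 25.2, 70.9, 18.8 and 15.3 CPM on the right, and was lower on the left in all 4 numbers. The left and right epipodial libraries of a number moved together about their group means: across the members, the deviations correlated at 0.85, 0.82, 0.75 and 0.88 in numbers 1 to 4. A fit of the 8 epipodial libraries with the number as a block had narrower errors, with the interval within 4-fold for 183 members and within 2-fold for those 137. It called 0 members, against 0.0174% of the genes it tested (edgeR, adjusted p). At an unadjusted p under 0.05, 38 members passed (20.3%), 33 higher and 5 lower on the left, against 7.58% of the genes it tested and 9.2% of those with at least 10 CPM in both tentacles.

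In the eyestalk HDSC01860CG00010 had 15.0, 36.3, 29.97 and 5.65 CPM in left replicates 1 to 4 and 0, 1.56, 1.43 and 11.2 CPM in right replicates 1 to 4. The log2 fold change was 3.08 ± 1.02 (SE; edgeR, unadjusted p = 0.00491, adjusted p = 1), and right replicate 4 lay within the range of the left side. HDSC00028CG00040 was lower on the left, with 28.2, 3.18, 0 and 5.65 CPM on the left and 17.7, 45.1, 3.33 and 6.65 CPM on the right, at -2.91 ± 1.07 (SE; edgeR, unadjusted p = 0.0105, adjusted p = 1). The sides overlapped, and without the doubted libraries the fold change was 1.36, in the other direction.

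Whether the left-right effect differed between organs was tested as the difference of the effects. Between the cephalic and the epipodial tentacle 0 members were called, against 0.0% of all genes, and 0 passed an unadjusted p under 0.05, against 0.681%. Between the eyestalk and the cephalic tentacle 0 members were called, against 0.0%, and 2 passed unadjusted, against 2.47%. Between the eyestalk and the epipodial tentacle 0 members were called, against 0.0%, and 3 passed unadjusted, against 0.872% (edgeR for all of these). No member thus had a left-right effect that was called different between organs. DESeq2 called 0 members in each of the 3, with 0, 4 and 3 unadjusted in the same order, and limma called 0, with 0, 0 and 1.

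More members were called by the replicate number than by the side. The main test of the number took all 24 libraries and that of the side 1 organ at a time, so these counts cannot be compared directly. Libraries of the 6 groups share the numbers 1 to 4, and the labels do not say what a number stands for. The test of the number was added after the data were seen. With the number added to the 6 group means over all 24 libraries, 19 members (10.2%) differed between numbers, against 12.9% of all genes and 8.21% of those with at least 10 CPM in both tentacles (edgeR, adjusted p under 0.05). The share was thus near that of other genes. DESeq2 called 31 members (16.6%, against 16% of genes), and edgeR called 10 (5.35%, against 4.21%) with the eyestalk and cephalic libraries alone and 55 (29.4%, against 21.4%) without the doubted libraries. With the epipodial libraries alone, 151 members (80.7%) differed between numbers, against 48.7% of the genes tested there and 56.0% of those with at least 10 CPM in both tentacles. That fit has 1 left and 1 right library in each number. Its p-values thus set the numbers against the left-right differences that remain within numbers after the side is fitted. If such a pair comes from 1 animal, the count describes single animals only.

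Among the 19, the number with the highest mean deviation was 1, 2, 3 and 4 in 4, 3, 8 and 4 members, and the lowest was 1, 2, 3 and 4 in 4, 7, 2 and 6 members. The members called were therefore not all high or low in 1 number. In 5 of them the same number was lowest in 6 of 6 groups by CPM scaled by TMM factors. The test that picked the 19 favours an order shared by the groups, and no share over other genes was taken. The mean deviations of the numbers spanned 1.96 to 8.76 on the log2 scale, the highest value being that of HDSC06736CG00010.

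HDSC06736CG00010, with a coding length of 399, had the fifth largest tentacle-to-eyestalk ratio and the smallest p for the number (edgeR, adjusted p = 4.66e-08). This gene and the next 2 were picked for these values. In replicate 4 it had 5.23 and 7.92 CPM in the left and right cephalic tentacle, 6.73 and 7.65 CPM in the left and right epipodial tentacle, and 4.11 and 4.60 CPM in the left and right eyestalk. It was thus read at a few CPM in every organ of that number. In replicates 1 to 3 it had 5276, 3084 and 706 CPM in the left and 2929, 335 and 6390 CPM in the right cephalic tentacle. It had 4467, 3470 and 1077 CPM in the left and 3770, 3890 and 1764 CPM in the right epipodial tentacle. In replicates 1 to 3 of the eyestalk it had 1528, 547 and 88.3 CPM on the left and 2157, 34.2 and 88.5 CPM on the right. All 6 libraries of number 4, with 61 counts in sum, lay below all 18 other libraries, with 63634 counts.

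HDSC09979CG00010, with a coding length of 597, had 0 counts in all 6 libraries of number 4, which held 10435477 counts. A count of 0 allows up to 0.287 CPM in the sum of these libraries, from 3 counts and for counting error only. In numbers 1 to 3 it had 4804 counts, with a count in 17 of 18 libraries (edgeR, adjusted p = 1.43e-07). It had 32.3, 54.6 and 188 CPM in left and 190, 306 and 23.3 CPM in right cephalic replicates 1 to 3, and 200, 587 and 119 CPM in left and 219, 368 and 113 CPM in right epipodial replicates 1 to 3. In eyestalk replicates 1 to 3 it had 40.9, 15.0 and 8.41 CPM on the left and 0, 6.25 and 41.4 CPM on the right.

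HDSC00963CG00010, with a coding length of 918, was low in number 1, with 0 and 1.07 CPM in the left and right cephalic tentacle, 1.86 and 0 CPM in the left and right epipodial tentacle, and 0 CPM in both eyestalks (edgeR, adjusted p = 1.99e-06). In replicate 4 it had 92.0 and 29.9 CPM in the left and right cephalic tentacle, 108 CPM on both sides of the epipodial tentacle, and 59.0 and 47.0 CPM in the left and right eyestalk. With CPM scaled by TMM factors, number 4 was the highest and number 1 the lowest in 6 of 6 groups. Unscaled, cephalic replicate 2 was higher than replicate 4 on both sides. The most abundant member, HDSC05866CG00020, also differed between numbers (edgeR, adjusted p = 0.00154) and was lowest in number 3 in 6 of 6 groups by scaled CPM. Unscaled, its right cephalic replicate 2 was below replicate 3, at 4681 against 5701 CPM.

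**Figure D5:**
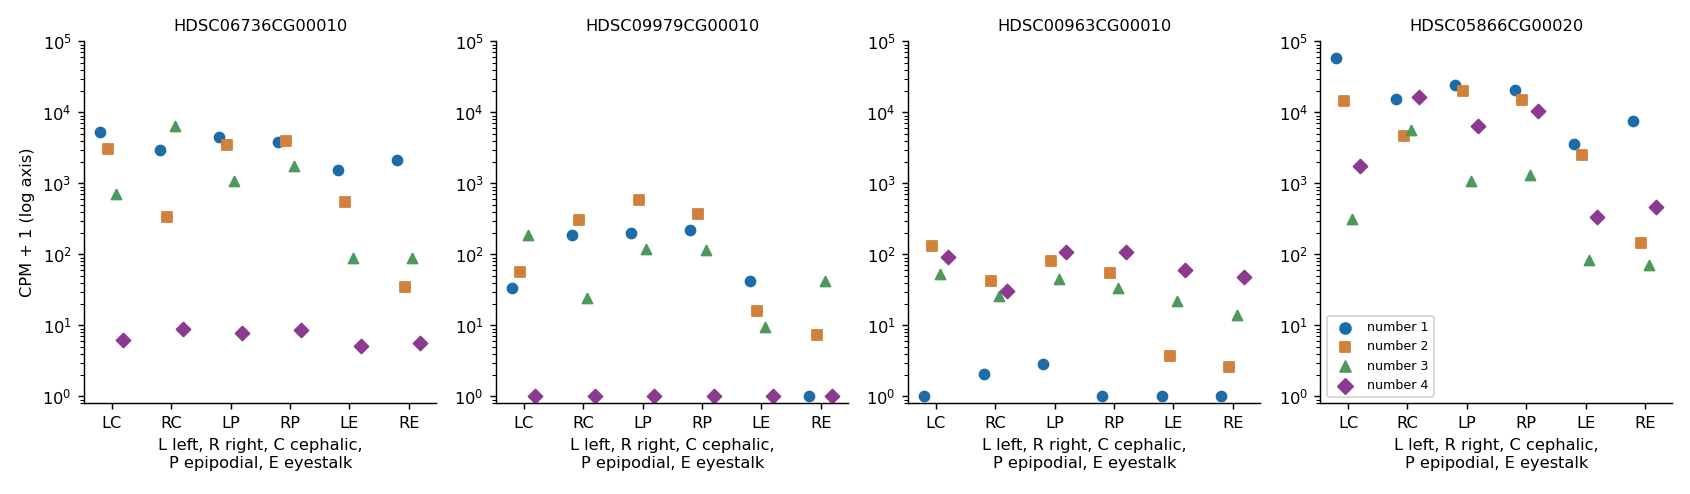
Level of 4 members in the 24 libraries, as CPM + 1 on a log axis, by group (LC and RC left and right cephalic tentacle, LP and RP left and right epipodial tentacle, LE and RE left and right eyestalk) and replicate number (colour and shape). HDSC06736CG00010 and HDSC09979CG00010 are lowest in number 4, at 4.11 to 7.92 CPM and at 0, HDSC00963CG00010 is at 0 to 1.86 CPM in number 1, and HDSC05866CG00020 is low in number 3 on both sides of the epipodial tentacle.

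In the epipodial tentacle the numbers ordered many members alike. Both libraries of number 1 lay above the other 6 in 70 members, against 19.0% of all genes tested, and both libraries of number 4 lay below the other 6 in 77, against 10%. In 74 members (39.6%) the 4 libraries of numbers 1 and 2 lay above the 4 of numbers 3 and 4, against 14.9% of all genes tested. These orders are by CPM with library totals. For them no share was taken over the 3034 genes with at least 10 CPM in both tentacles, a bound that every member meets. By library totals the members' share of counts moved the same way, at 10.3%, 8.08%, 4.22% and 3.38% in the mean of both sides in numbers 1 to 4. With TMM factors it was 6.86%, 8.02%, 3.93% and 2.85% in left epipodial replicates 1 to 4. On the right it was 7.10%, 4.82%, 4.12% and 2.70%. Left replicate 2 was then above left replicate 1. The shares that follow are by library totals. In the cephalic tentacle it was 9.93%, 5.51%, 7.40% and 8.06% and in the eyestalk 1.67%, 0.390%, 0.810% and 0.813% in numbers 1 to 4. Between 8876 and 10678 genes were read in an epipodial library, from 1700095 to 2146464 counts, so none was of low detection. Whether a number is an animal, a day or a run was not tested and cannot be told apart from these labels.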

How the data were processed

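Each deposited table holds 19700 genes in 24 libraries. The read count per gene was deposited by the authors without normalization, and FPKM was deposited by the authors per coding length and library total. The coding lengths printed here, in bases, were worked back from counts and FPKM as a median over libraries, and were not read from an annotation. Over the genes tested, 99.5% of these lengths were divisible by 3. Per the labels' protocols, TRIzol was used for the RNA and a VAHTS Universal V6 kit for the libraries. Fastp, HISAT2 and HTSeq are named, per the submitters' processing notes. Versions, build, annotation and strand handling are not given in the sources used, so overlapping or near-identical genes are uncertain.

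CPM is the count over the library's total, and ratios were taken after 1 CPM was added. Members and lists were chosen with earlier results of these data known. The tests used edgeR 4.0.16 under R 4.3.3 (quasi-likelihood, robust, TMM factors, filterByExpr, 6 group means, 18 residual degrees of freedom) over 7341 genes, with Benjamini-Hochberg adjustment and a threshold of 0.05. The test was also run on simulated counts with known changes, drawn independently for each library. Those counts held no pairing of libraries, so that run cannot show how well differences between the real sides are found. The SE of an edgeR fold change is approximate: the size of the log2 fold change over the square root of the test's F statistic. Alternatives used RLE factors, library totals, no filter, DESeq2 1.42.0, limma 3.58.1 on log2(FPKM + 1) and left-out libraries. Named genes were the members with the largest ratio, the highest level, the largest and lowest fold change between tentacles and the smallest p in each left-right direction, and others are said to be picked later.

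Whether numbers pair the libraries was checked with correlations of deviations from group means over all genes tested, with a bound of 0.1. Left and right epipodial libraries passed (0.77, 0.74, 0.68 and 0.77), as did organ averages of both sides (0.21 to 0.56). Left and right eyestalks (-0.13 to 0.61) and cephalic tentacles (-0.24 to 0.17) did not. A floor covers counting error only, because reads lacking molecular identifiers may repeat a molecule.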

Additional observations from a re-analysis of the deposited data

Results flagged for a closer look

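Within a group of 4 libraries or an organ of 8, the gap of the highest or lowest library to the next was compared with Dixon's 95% critical value, over 135 groups. Chance alone marks about 1 in 20 such groups, and 8 were marked. HDSC03594CG00010 stood high in left cephalic replicate 4, at 11023 CPM. HDSC00021CG00270 stood high in right cephalic replicate 1, at 3117 CPM, among the 8 cephalic libraries. HDSC00963CG00010 stood low in right cephalic replicate 1, at 1.07 CPM, and HDSC06736CG00010 stood low in right epipodial replicate 4, at 7.65 CPM. HDSC01629CG00010 had 0 CPM in left epipodial replicate 3, the lowest of the 8 epipodial libraries. HDSC00150CG00050 had 22.3 CPM in right eyestalk replicate 2, the lowest of the 8 eyestalk libraries and the one with 70.8% of its counts on 1 gene. The members' share of counts stood high in left eyestalk replicate 1, at 2.08%. The number of members read was lowest in right epipodial replicate 4, at 180, among the 8 epipodial libraries.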

How the results depend on the processing

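The absence of left-right calls among members, and of calls on the difference between organs, held under every alternative run: other scalings, no filter, DESeq2, limma, the replicate block, without the doubted libraries and with each library left out (0 members each). The replicate block on all 24 libraries left 0 members called left against right in each organ. Which genes met the bounds depended on the settings. Of the 187 members, 120 were shared with CPM scaled by TMM factors, 90 without the doubted libraries, 124 with the left libraries alone and 104 with a pseudocount of 5, under which 104 genes met the bounds. With 1 library left out, 149 to 334 genes met them: 334 without left eyestalk replicate 1, 319 without left eyestalk replicate 4, 310 without right eyestalk replicate 3 and 329 without right eyestalk replicate 4. The median ratio of the 187 members stayed between 2.04 and 2.83 across the other settings, and between 2.504 and 3.03 with 1 library left out.

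Members called by replicate number were 19, with 17 to 25 when 1 library was left out, 55 without the doubted libraries, 151 with the epipodial libraries alone, 10 with the eyestalk and cephalic libraries alone and 31 by DESeq2. Members called between the tentacles were 2, with 0 under library totals, 6 without the filter, 5 with the replicate block, 4 without the doubted libraries, 4 by DESeq2, 0 by limma and 1 to 3 with 1 library left out. The log2 fold change of HDSC00021CG00270 between the tentacles was -2.9995 and ran from -5.06 to 0.36 with 1 library left out, the positive value being that without right epipodial replicate 1, and that of HDSC00028CG00040 between the eyestalks was -2.91, and 1.36 without the doubted libraries. The causes were not tested. Per eyestalk library, 83 to 185 of the 187 members were read, from 1692939 to 4479096 counts. Depth sets the level below which a gene read as 0 cannot be placed, 0.287 CPM over the 6 libraries of number 4.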
